A study of Mus musculus with 2 samples.

Results

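The 10 genes described here are the cytotoxic effector genes Gzma, Gzmb, Gzmk, Gzmm, Prf1, Nkg7, Ctsw, Klrd1, Ifng and Fasl, chosen by symbol among the 32285 gene rows of the expression matrices, and all 10 were found. They were described in natural killer (NK) cells, CD8+ T cells and CD4+ T cells from mice with liver metastases that received a hepatic arterial infusion (HAI) of vehicle or of CBL0137, a small molecule known as a curaxin. The mice were female BALB/c (strain BALB/cAnNCrl) animals aged 7 to 8 weeks, and in every group 4T1 mammary carcinoma cells were seeded into the liver through the spleen, of which part was then removed, so no group was free of tumour or of surgery. Cells of vehicle, low-dose and high-dose mice, taken 5 days after the infusion and pooled from 2 mice per group, carried antibody hashtags A0301, A0305 and A0310 respectively, and were run as 1 single-cell RNA library labelled liver and 1 labelled spleen. Which mass of CBL0137 the low and the high dose stood for is not stated for these samples in the labels or methods read here. GEO's labels call the cells leukocytes, whereas the study's methods describe bead isolation of CD11b+ cells and name staining with A0301 or with a tag written as 310, while A0305 appears there as an example of a barcode sequence. With 1 pooled sample per group in each library there was no replicate of any condition, so no p-value is given. Every interval below is an exact 95% interval that covers counting error only.

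The hashtag barcodes are shown because they alone assigned a cell to a treatment group. They were read from the deposited feature tables in lower case, 5′ to 3′:
A0301, vehicle: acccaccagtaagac
A0305, low dose: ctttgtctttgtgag
A0310, high dose: ccgattgtaacagac

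The tissue labels of the libraries went against their transcripts. Among cells with a hashtag call, no UMI of albumin (Alb) and none of the Kupffer cell gene Clec4f were found in the library labelled liver, whereas the library labelled spleen held 549 and 3520 UMIs of them. A list of 4 spleen genes stood at 145.6 UMIs per 1000000 (written CPM) in the former and at 37.6 CPM in the latter, and the names of the deposited files give the tissues the other way round from the labels. The libraries are therefore called by their labels throughout. Ratios to vehicle are given within 1 library, and ratios between the libraries compare libraries rather than known tissues. They held 9591 and 4830 barcodes with 79585807 and 35672251 UMIs, and 15 barcodes occurred in both. The vehicle, low-dose and high-dose tag alone was carried by 3103, 3194 and 2138 barcodes of the former and by 822, 1301 and 865 of the latter. A doublet caller marked 2.59% of the former and 1 barcode of the latter, where it cannot be taken to have worked, and no cell was removed by it.

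Cytotoxic lymphocytes kill through granules. Perforin opens a pore in the target cell membrane and granzymes, which are serine proteases, enter and start cell death. A second route runs through Fas ligand on the killer cell surface, and interferon gamma is the secreted cytokine that these cells share. NK cells carry granules ready made, naive CD8+ T cells carry few until they have met antigen, and most CD4+ T cells are not cytotoxic. Within the 10 genes, Gzma, Gzmb, Gzmk and Gzmm encode granzymes, Prf1 encodes perforin, Nkg7 encodes a granule membrane protein, Ctsw encodes a cysteine protease of cytotoxic cells, Klrd1 encodes CD94, the partner of NKG2 receptors, Ifng encodes interferon gamma and Fasl encodes Fas ligand. In the GENCODE annotation of mm10 used for the positions, Gzma and Gzmk are neighbours on the minus strand of chromosome 13. They lie at 113093825 to 113100981 and 113171608 to 113225908. Gzmb lies on the minus strand of chromosome 14 at 56258838 to 56262260. It is in a cluster of related granzyme genes, and sequence shared among them could affect its count. The other members lie at 79689020 to 79695261 (Gzmm), 61297833 to 61304680 (Prf1) and 118441046 to 118445892 (Ifng) on the plus strand of chromosome 10, at 43437073 to 43438249 on the plus strand of chromosome 7 (Nkg7), 129591782 to 129598775 on the plus strand of chromosome 6 (Klrd1), 5465043 to 5468507 on the minus strand of chromosome 19 (Ctsw) and 161780689 to 161788495 on the minus strand of chromosome 1 (Fasl).

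The cell classes were set by per-cell marker gates that used none of the 10 genes. NK cells had at least 2 UMIs of an NK list that includes Ncr1 and no UMI of Cd3d, Cd3e or Trac. T cells had at least 2 UMIs of a T cell list, and were CD8+ with a UMI of Cd8a or Cd8b1 and none of Cd4, or CD4+ with the reverse, and barcodes with B cell, myeloid or high S100a8 and S100a9 counts were left out. The library labelled liver gave 139 NK, 689 CD8+ and 861 CD4+ cells, and the library labelled spleen gave 20, 143 and 44. Of the NK cells, 86 of the 139 and 11 of the 20 also met the T cell gate without Cd4 or Cd8 UMIs. They did so on T list genes other than Cd3d, Cd3e and Trac, and were kept as NK cells. Ncr1, which encodes the NK receptor NKp46, stood at 1524 CPM in NK cells and 0.964 CPM in CD8+ T cells of the library labelled liver, against 1123 and 22.7 CPM in the other. The CD4+ gate was thin, since 535 of the 861 cells in the library labelled liver passed it on exactly 1 Cd4 UMI. Levels below are summed UMIs of a class and group per 1000000 of its UMIs, and ratios are log2 of such levels. A member was called different when both pools together held at least 20 of its UMIs, the levels differed at least 2-fold and the interval of the ratio left out 0.

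The NK cells of the library labelled liver, 139 of its cells with a hashtag call, held 72.9% of that library's Gzma UMIs, 52.7% of its Gzmb UMIs and 51.1% of the UMIs of all 10 genes. Its 689 CD8+ T cells held 2.08% of the Gzma UMIs, and 18.5% of the UMIs of the 10 genes. The library labelled spleen showed the reverse order. There the 143 CD8+ T cells held 48.0% of the Gzma UMIs and 45.9% of all member UMIs, and the 20 NK cells 7.87% and 6.60%. All these shares are of UMIs in cells with a hashtag call. In the library labelled spleen 211 barcodes with T or NK list UMIs, left out of the gates, held 26.4% and 23.7%. Its 20 NK cells without a hashtag call held 2420 Gzma UMIs, against 554 in the 20 with one. The NK share there thus depends on which cells are counted. B cells and neutrophils, which are not cytotoxic lymphocytes, were read for comparison. Gzma stood at 0.61 to 1.32 CPM and Nkg7 at 25.9 to 62.0 CPM in these cells over both libraries. The Nkg7 UMIs were not evenly spread, since 22 of the 1326 B cells in the library labelled liver held all 176 of theirs and 1 cell held 50, so these levels are not shown to be free RNA.

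NK cells of the library labelled liver held UMIs of all 10 genes in both CBL0137 groups and of 9 of them, all but Gzmm, with vehicle. The 29 vehicle, 56 low-dose and 54 high-dose cells held 18409, 18088 and 22416 CPM of the 10 genes together. Gzma, whose product granzyme A cleaves after basic residues, was the most counted member, with 1500, 3240 and 3674 UMIs or 11312, 11532 and 15139 CPM in the vehicle, low-dose and high-dose groups. The high-dose level lay above the other groups. The ratio of high dose to vehicle was 0.42 (interval 0.33 to 0.51), short of 2-fold, and that of low dose to vehicle was 0.03. The median NK cell held 50, 48.5 and 56.5 Gzma UMIs in the 3 groups, so the transcripts were spread over the cells rather than held by a few. Gzmb, whose product granzyme B activates caspases, stood at 649, 655 and 931 CPM, and its ratio of high dose to vehicle was 0.52 (0.16 to 0.90). Gzmk was rare, with 8, 17 and 2 UMIs or 60.3, 60.5 and 8.24 CPM, too few for a call at the high dose. Gzmm gave 0, 4 and 4 UMIs. The interval of the 0 reached 27.8 CPM, and 3 UMIs would have given 22.6 CPM.

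The members outside the granzymes stayed within 2-fold of vehicle in these NK cells. Prf1, the pore former, stood at 1184, 943 and 1067 CPM, with a ratio of -0.33 (-0.62 to -0.03) at the low dose and of -0.15 at the high dose. Nkg7 gave 3401, 3186 and 3330 CPM, and its ratio of high dose to vehicle was -0.03. Ctsw gave 422, 431 and 358.5 CPM. The CD94 gene Klrd1 differed little as well. Its levels were 1207, 1057 and 1372 CPM. The effector molecules outside the granules, Ifng and Fasl, were sparse, with 8, 12 and 13 UMIs of Ifng and 15, 47 and 34 UMIs of Fasl. Across the 10 genes, 0 of 8 with enough UMIs were called at the high dose, where 4.9% of the 3182 genes tested were called, and 0 of 9 at the low dose, where 6.87% were. The median ratio at the high dose was 0.08 over the members tested and 0.06 over all genes tested. The summed ratio of high dose to vehicle was 0.28 (0.21 to 0.35). Without Gzma, the most abundant member, it was 0.04 (-0.08 to 0.15). The share of cycling-gene UMIs differed between the same pools, at 30.2, 822 and 272 CPM, and its part in these values was not tested.

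**Figure D1:**
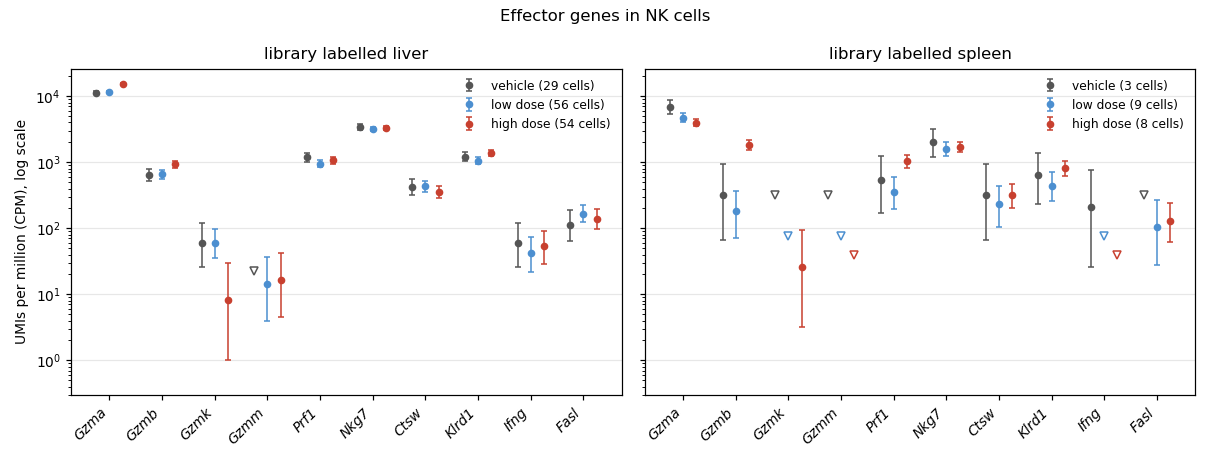
Levels of each of the 10 genes in NK cells, in CPM on a log axis, for the vehicle, low-dose and high-dose groups of the library labelled liver and of the library labelled spleen, with exact 95% counting intervals as bars; an open triangle marks the level that 3 UMIs would give where 0 were counted. Gzma stands at 11312 to 15139 CPM in the library labelled liver, where the points of the 3 groups lie close together for most members, while the library labelled spleen, with 3, 9 and 8 cells, has wide intervals.

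The NK class of the library labelled spleen held 3, 9 and 8 cells, so its values rest on few cells. Gzma stood at 6922, 4759 and 3978 CPM in the vehicle, low-dose and high-dose groups. This order, with vehicle highest, was the opposite of that in the other library, and the ratio of high dose to vehicle was -0.80 (-1.19 to -0.39). However, 44 of the 65 vehicle UMIs and 174 of the 304 high-dose UMIs came from 1 cell of each group. The median cell held 18, 25 and 9.5 Gzma UMIs, highest at the low dose. Gzmb gave 3, 7 and 141 UMIs and a called ratio of 2.53 (0.95 to 4.82), but 81 of the 141 UMIs came from 1 cell. It was the 1 member called of 6 tested at the high dose, beside 57 of 609 genes. Prf1 stood at 532, 360 and 1034 CPM and Nkg7 at 2023, 1595 and 1714 CPM. Over all cells with a hashtag call, 0 of 9 members were called higher in NK cells of the library labelled spleen than in those of the library labelled liver, where 4.29% of all genes tested were, and Gzma was called lower at -1.53. Both libraries hold the same mice, so these are values of libraries and not of replicates.

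CD8+ T cells of the library labelled liver expressed a part of the programme. Nkg7, Ctsw and Klrd1 were found in many of them, and granzymes in few. Nkg7 gave 679, 855 and 1089 UMIs or 669, 619 and 621 CPM in the 170 vehicle, 242 low-dose and 277 high-dose cells, and 133, 201 and 221 of these cells had at least 1 UMI. The 3 levels were close, with a ratio of -0.11 for high dose over vehicle. Ctsw stood at 195, 157 and 167 CPM. Klrd1 stood at 142, 122 and 186 CPM, with a ratio of 0.39 (0.10 to 0.68) at the high dose, the one positive ratio at that dose among the members with enough UMIs. Prf1 stood at 89.6, 70.9 and 56.4 CPM, which made vehicle highest, and its ratio at the high dose was -0.67 (-1.09 to -0.24). Ifng gave 1, 1 and 14 UMIs, Fasl 2, 0 and 5, and Gzmk 7, 3 and 10, all under or near the limit for a call.

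The granzyme levels of these CD8+ T cells were lower in both CBL0137 groups than with vehicle, and rested on single cells. Gzma gave 110, 31 and 99 UMIs or 108, 22.4 and 56.4 CPM. Of the 110 vehicle UMIs 100 came from 1 of the 170 cells, and of the 31 low-dose UMIs 28 came from 1 of the 242. In the high-dose group 4 cells held 10 or more each. The ratio of low dose to vehicle was -2.27 (-2.90 to -1.69) and met the call. That of high dose to vehicle was -0.94 (-1.35 to -0.54), and without the cell richest in each gene in each pool it was 1.97 (1.00 to 3.09), with the opposite sign. The low-dose ratio without those cells was -2.19, but without cells carrying at least 2 NK list UMIs it was 2.52 (1.02 to 4.48), so the direction depended on which cells were counted. The vehicle cell with 100 Gzma UMIs held 8250 UMIs in all and 4 UMIs of the NK list. Gzmb gave 64, 6 and 46 UMIs or 63.0, 4.34 and 26.2 CPM, with called ratios of -3.86 (-5.36 to -2.66) at the low dose and -1.27 (-1.84 to -0.70) at the high dose. Here 32 of the 64 vehicle UMIs came from 1 cell that also held 52 UMIs of the cycling genes Mki67 and Top2a. Without the richest cells the Gzmb ratios were -3.14 and -0.81, so the low-dose call held and the high-dose value no longer reached 2-fold. The high-dose sign turned with cells of T or NK cell-like clusters alone (0.69) and as a mean over cells (0.96). Gzmm, the granzyme with a preference for hydrophobic residues, gave 15, 5 and 10 UMIs and called ratios of -2.03 (-3.84 to -0.50) and -1.37 (-2.69 to -0.12), on 20 and 25 UMIs. In all, 3 of 7 members tested were called lower at the low dose, where 3.01% of all genes tested were called, and 2 of 7 at the high dose, where 2.66% were. The median ratio of the members tested was -0.34 at the low and -0.67 at the high dose, against -0.03 and -0.04 for all genes tested. The calls changed without cells carrying at least 2 NK list UMIs. Then 1 of 6 was lower and 1 higher at the low dose (median -0.19), beside 226 of 7431 genes called. At the high dose 0 of 6 were lower and 1 higher (median -0.08), beside 224 of 7600. Without cells holding Mki67 or Top2a UMIs 1 of 5 was lower at the low dose (median -0.26), beside 174 of 7336. At the high dose it was 2 of 7 (median -0.12), beside 165 of 7663. Summed over the 10 genes the levels of all these CD8+ T cells were 1291, 1002 and 1135 CPM.

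**Figure D2:**
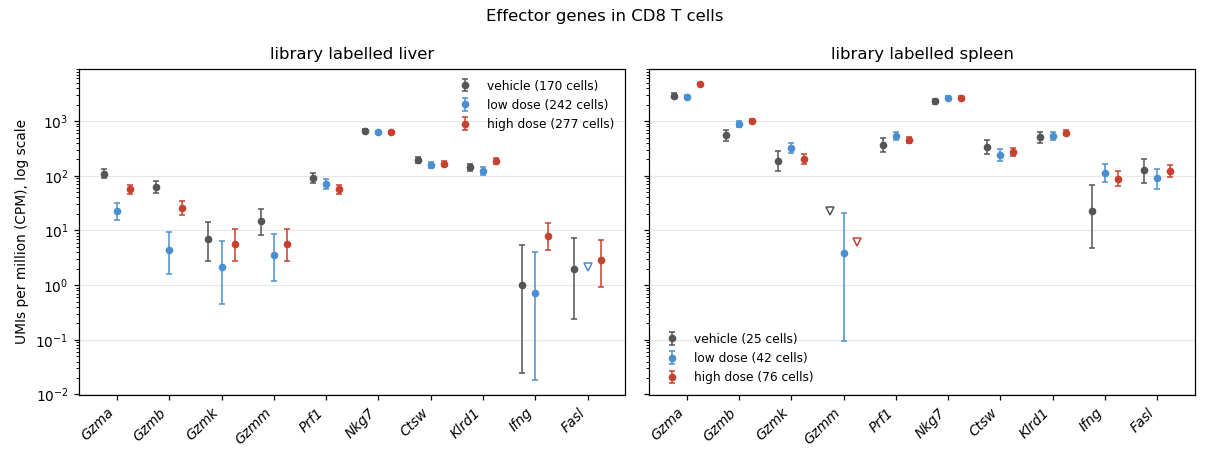
Levels of the 10 genes in CD8+ T cells, in CPM on a log axis, by treatment group in the library labelled liver and the library labelled spleen, with exact 95% counting intervals; open triangles mark the level of 3 UMIs where 0 were counted. Nkg7 stands at 619 to 669 CPM in the left panel and at 2300.0 to 2688 CPM in the right panel, and Gzma at 22.4 to 108 CPM against 2767 to 4682 CPM.

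The CD8+ T cells of the library labelled spleen carried the granzymes in numbers. Gzma gave 384, 731 and 2264 UMIs or 2905, 2767 and 4682 CPM in 25 vehicle, 42 low-dose and 76 high-dose cells, and 9, 22 and 47 cells had at least 1 UMI. The high-dose level was above the other groups, with a ratio to vehicle of 0.69 (0.53 to 0.85). One vehicle cell held 162 of the 384 UMIs, and without the richest cell of each pool the ratio was 1.25 (1.05 to 1.45). Gzmb stood at 545, 893 and 989 CPM, lowest with vehicle, and its ratios were 0.71 (0.33 to 1.12) at the low dose and 0.86 (0.50 to 1.24) at the high dose. Gzmk, a granzyme of memory-type T cells, stood at 189, 322 and 203 CPM. Gzmm was all but missing, with 0, 1 and 0 UMIs. Prf1 stood at 371, 538 and 451 CPM. Nkg7 stood at 2300.0, 2688 and 2684 CPM, and Klrd1 at 507, 530 and 616 CPM. Ifng, the cytokine gene, gave 3, 30 and 43 UMIs or 22.7, 114 and 88.9 CPM, and was the member called higher at both doses, at 2.32 (0.64 to 4.68) and 1.97 (0.33 to 4.30) on 3 vehicle UMIs. Both calls were lost without cells carrying at least 2 NK list UMIs, at 0.76 (-2.04 to 4.23) and 0.13 (-2.36 to 3.47). Fasl stood at 129, 90.8 and 122 CPM. Thus 1 of 9 members tested was called at the low dose, beside 6.09% of all genes, and 1 of 9 at the high dose, beside 4.82%. The summed levels were 7308.5, 8188 and 10113 CPM. UMIs of a cycling list differed between the same pools, at 340, 1052 and 1092 CPM, and those of a naive T cell list stood at 197, 49.2 and 86.9 CPM. Without cells holding Mki67 or Top2a UMIs, 4 of 8 members were called higher at the low dose, beside 49 of 1380 genes. At the high dose 2 of 9 were, beside 61 of 2020. Without cells carrying at least 2 NK list UMIs 0 of 7 were higher at the low dose, beside 29 of 976 genes. At the high dose 1 of 8, a member other than Ifng, was higher, beside 83 of 1981. Among cells without a naive list UMI 1 of 9 was higher at each dose, beside 52 of 2124 genes (low) and 81 of 3349 (high). Among cells with such a UMI 2 of 5 were higher (low) and 0 of 6 (high), beside 134 of 709 and 167 of 1194. What part the lists had in the member levels was not tested.

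**Figure D3:**
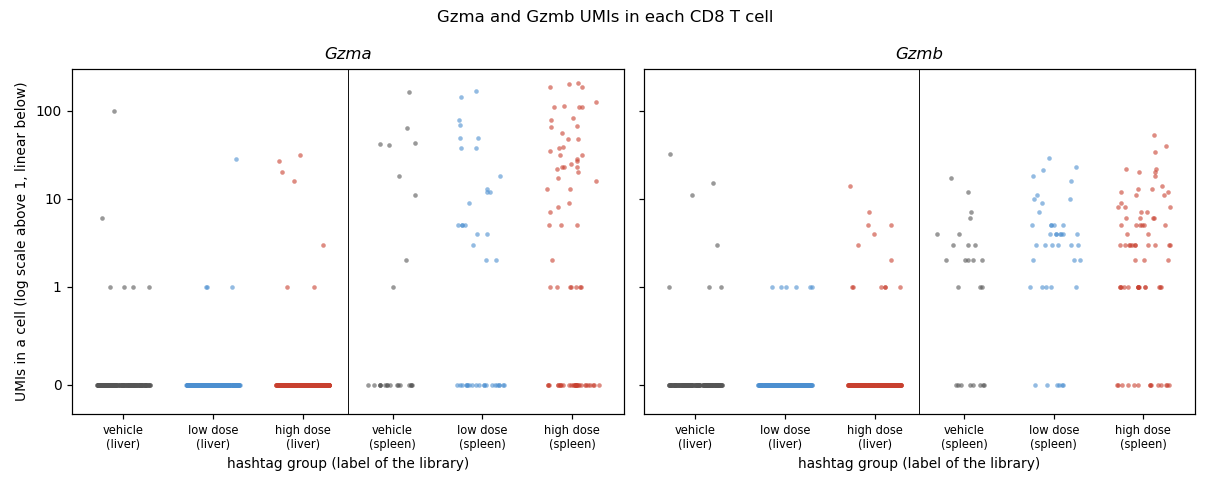
UMIs of Gzma and Gzmb in single CD8+ T cells, 1 point per cell, by treatment group and library, on an axis that is linear up to 1 UMI and logarithmic above. For Gzma, 1 vehicle cell with 100 UMIs and 1 low-dose cell with 28 stand far above the other cells of their own groups in the library labelled liver, where 4 high-dose cells hold 16 to 31, whereas in the library labelled spleen 7 vehicle, 12 low-dose and 33 high-dose cells hold 10 or more.

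In CD8+ T cells the summed levels differed more between the libraries than between the treatment groups of either. Over all CD8+ T cells with a hashtag call, the 10 genes together stood at 9114 CPM in the library labelled spleen and at 1129 CPM in the one labelled liver, a ratio of 3.01 (2.96 to 3.07). Gzma had a ratio of 6.05 (3840.3 against 57.8 CPM), Gzmk of 5.62 (236 against 4.82 CPM) and Gzmb of 5.00 (893 against 27.9 CPM). The ratios of Prf1, Nkg7, Klrd1 and Ctsw were smaller, at 2.74, 2.06, 1.90 and 0.70. Ifng and Fasl, with 16 and 7 UMIs in the library labelled liver, had ratios of 4.49 and 6.07. Gzmm went the other way, at -2.67 (-8.02 to -0.08) on 1 against 30 UMIs. Of the 10 members 8 were called higher and 1 lower, and 15.3% of all genes tested were called higher. Shares of cells moved likewise. After each cell was thinned to 500 UMIs, which left out no cell, Gzma was seen in 39.9% of CD8+ T cells in the library labelled spleen and 0.871% in the library labelled liver, and Nkg7 in 70.6% and 24.2%. Without thinning these shares were 54.5% and 2.47% for Gzma and 98.6% and 80.6% for Nkg7, at median depths of 4684 and 5720 UMIs. The thinned shares in B cells and neutrophils were 0 to 0.226% for Gzma and 0.151% to 1.02% for Nkg7. The naive list stood at 92.1 CPM in the library labelled spleen and at 1427 CPM in the other, so the classes differed in make-up. Among CD8+ T cells without a UMI of that list, 119 and 19 cells, the summed ratio was 0.78 (0.64 to 0.92). Of 9 members tested in them 1 was called higher, beside 163 of 4615 genes. The 19 cells were 2 vehicle, 4 low-dose and 13 high-dose cells, and the groups differed. With vehicle 3 of 7 members were lower, beside 42 of 855 genes. At the low dose 6 of 8 were higher, beside 73 of 1391, and at the high dose 3 of 9, beside 129 of 3001. Among CD8+ T cells with a UMI of that list, 24 and 670 cells, 6 of 9 members were called higher, beside 1244 of 8828 genes. Their summed ratio was 1.74. Over all CD8+ T cells the summed ratio was also taken without some cells. Without cells that carried at least 2 NK list UMIs it was 3.17, and without cells that held a UMI of Mki67 or Top2a it was 3.32.

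Promoter sequences are shown for the 2 granzymes with the most UMIs, for Prf1 and for Gzmm, the granzyme that did not go with the others between the libraries. RefSeq promoters on GRCm38.p6 were matched for 8 of the 10 members, with 2 entries for Gzmm, and not for Ctsw and Klrd1. The 250 bases before the start are printed 5′ to 3′ on the gene's strand, with capitals where 1 of 4 motifs was found on either strand, namely TGTGGT (RUNX), AGGTGTGA (T-box), TGANTCA (AP-1) or ACTTCCT (ETS):
Gzma, chr13:113100982-113101231, minus strand: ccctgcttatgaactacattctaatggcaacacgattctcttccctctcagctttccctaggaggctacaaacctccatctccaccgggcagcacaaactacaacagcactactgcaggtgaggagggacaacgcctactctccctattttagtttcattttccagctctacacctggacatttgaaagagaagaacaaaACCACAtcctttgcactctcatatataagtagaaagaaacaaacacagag
Gzmb, chr14:56262335-56262584, minus strand: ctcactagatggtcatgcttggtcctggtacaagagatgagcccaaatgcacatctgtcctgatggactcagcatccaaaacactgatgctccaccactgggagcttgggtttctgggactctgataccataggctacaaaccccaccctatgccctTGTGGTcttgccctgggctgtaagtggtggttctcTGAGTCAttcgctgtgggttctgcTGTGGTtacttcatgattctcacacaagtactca
Prf1, chr10:61297586-61297835, plus strand: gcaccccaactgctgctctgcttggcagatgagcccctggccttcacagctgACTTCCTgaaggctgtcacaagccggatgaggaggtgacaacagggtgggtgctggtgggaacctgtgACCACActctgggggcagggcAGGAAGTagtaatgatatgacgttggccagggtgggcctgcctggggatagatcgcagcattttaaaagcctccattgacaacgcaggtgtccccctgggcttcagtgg
Gzmm, chr10:79688770-79689019, plus strand: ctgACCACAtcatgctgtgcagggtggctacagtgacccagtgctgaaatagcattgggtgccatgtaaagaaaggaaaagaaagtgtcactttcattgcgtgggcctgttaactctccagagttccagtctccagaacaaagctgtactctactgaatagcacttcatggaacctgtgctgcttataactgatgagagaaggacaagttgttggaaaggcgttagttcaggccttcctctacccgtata
The RUNX letters stood 50 to 45 bases before the start in Gzma, at 93 to 88 and 34 to 29 in Gzmb, at 130 to 125 in Prf1 and at 247 to 242 in Gzmm. Gzmb also held the AP-1 letters at 58 to 52, and Prf1 the ETS letters at 198 to 192 and 109 to 103. Of the 9 member promoters 5 held the RUNX letters, which 14.0% of all 32851 promoters of this length held. The T-box letters were in 1 (Nkg7, 14 to 7 bases before the start), the AP-1 letters in 1 and the ETS letters in 2, against 1.12%, 6.75% and 7.69% of all promoters. A match of letters is a description and not a binding site.

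NK cells stood above CD8+ T cells in the library labelled liver. There 9 of 10 members were called higher in NK cells, beside 16.6% of all genes, with ratios of 7.79 for Gzma, 6.44 for Fasl, 4.76 for Gzmb, 3.90 for Prf1, 2.97 for Klrd1, 2.38 for Nkg7 and 1.24 for Ctsw. Gzmm was the exception, at 0.75 (-0.58 to 1.91). With vehicle alone the 10 genes together were 14.3-fold higher in NK cells. By contrast, 0 of 9 members were called higher in NK cells of the library labelled spleen, beside 4.55% of all genes, and Gzmk and Ifng were lower, at -3.88 and -2.43. The summed ratio there was 0.02 (-0.07 to 0.11). CD8+ over CD4+ T cells gave 6 members higher and 1 lower of 10 in the library labelled liver, beside 2.15% of all genes called higher, led by Klrd1 at 4.13 and Nkg7 at 4.01. Of 9 members tested in the library labelled spleen, 8 were higher in CD8+ T cells, beside 6.84%, with Gzma at 9.39 and Prf1 at 6.35. Ifng was as high in CD4+ as in CD8+ T cells of that library, at 88.6 and 86.4 CPM and a ratio of -0.04.

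Members were also found together in single cells. A median NK cell of the library labelled liver held UMIs of 6 of the 10 genes, and 89.9% held at least 5. The median CD8+ T cell held 2 in that library, where 2.76% held at least 5, and 6 in the library labelled spleen, where 81.1% did. Of the cells with Gzmb, 108 of 109 NK cells in the library labelled liver also had Gzma. For CD8+ T cells this was 7 of 26 in that library and 72 of 115 in the library labelled spleen. There 80 of the 86 CD8+ T cells with Gzmk also had Gzmb.

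CD4+ T cells of the library labelled liver held little of the 10 genes, with 104, 152 and 169 CPM together in 189 vehicle, 273 low-dose and 399 high-dose cells. Gzma gave 2, 54 and 53 UMIs or 2.11, 39.2 and 22.6 CPM, and its ratios of 4.22 (2.30 to 7.30) at the low and 3.42 (1.50 to 6.51) at the high dose met the call. The cells behind them were few. In the low-dose group 51 of the 54 UMIs came from 1 cell that held 23 NK list UMIs, and in the high-dose group 27 of the 53 came from 1 cell. Without cells carrying at least 2 NK list UMIs the low-dose ratio was 0.06 (-3.07 to 3.64). Gzmb gave 4, 12 and 70 UMIs or 4.21, 8.71 and 29.9 CPM, a called ratio of 2.83 (1.40 to 4.74) at the high dose, with 34 of the 70 UMIs in 1 cell that held 54 UMIs of Mki67 and Top2a. With cells of T or NK cell-like clusters alone this ratio was -1.55 (-4.32 to 1.02). Nkg7 stood at 28.4, 20.3 and 54.6 CPM, beside 25.9 and 28.0 CPM in the B cells and neutrophils of the same library. The vehicle level was close to these and the high-dose level above them, with a ratio to vehicle of 0.94 (0.33 to 1.60). Prf1 stood at 37.9, 47.9 and 23.5 CPM, lowest at the high dose with a ratio of -0.69. Gzmk, Gzmm, Klrd1, Ctsw, Ifng and Fasl each stood under 20 CPM in every group. In all, 1 of 5 members tested was called at the low dose, beside 2.83% of all genes, and 2 of 6 at the high dose, beside 4.21%. UMIs of the cycling list differed between the same pools, at 40.0, 407 and 530 CPM. Their part in the member levels was not tested. The 60 CD4+ T cells with a UMI of Foxp3, the regulatory T cell factor, held 67.2 CPM of the 10 genes, and those without held 159 CPM.

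The CD4+ class of the library labelled spleen held 4, 10 and 30 cells with 34, 28 and 224 member UMIs. The summed level was 2632 CPM with vehicle, 697 CPM at the low dose and 754 CPM at the high dose. The vehicle value rested largely on 1 cell, which held 20 of the group's 22 Nkg7 UMIs. Over all cells, 5 members were called higher and 2 lower of 9 against the CD4+ T cells of the library labelled liver, beside 8.74% of all genes called higher. Those higher were Ifng (4.79), Nkg7 (3.73), Gzmk (3.66), Ctsw (2.23) and Gzmb (1.31). Gzma and Prf1 were lower, at -2.03 and -2.56. The Gzma value set 2 UMIs against 109 in the library labelled liver. There 51 came from 1 low-dose cell and 27 from 1 high-dose cell.

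**Figure D4:**
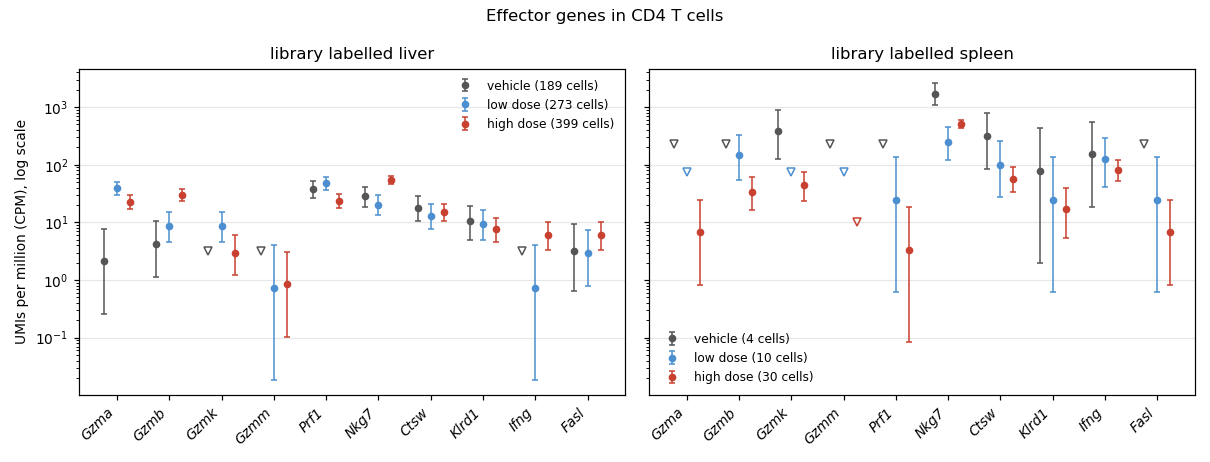
Levels of the 10 genes in CD4+ T cells, in CPM on a log axis, by treatment group in both libraries, with exact 95% counting intervals and open triangles at the level of 3 UMIs where 0 were counted. Gzma stands at 2.11 CPM with vehicle and at 39.2 and 22.6 CPM with CBL0137 in the left panel, and in the right panel the intervals of the 4 vehicle cells are wide.

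T cells in which neither Cd4 nor Cd8 UMIs were counted held further member UMIs, 13.2% of those in the library labelled liver and 11.3% of those in the library labelled spleen. Of the 10 genes, Gzma led. In the library labelled spleen the 10 vehicle, 32 low-dose and 29 high-dose cells held 0, 3 and 1147 Gzma UMIs, and 463 of the 1147 came from 1 cell. Gzmb gave 0, 14 and 326 UMIs there, 190 of them in 1 cell. Gzma of these cells in the library labelled liver stood at 237, 245 and 741 CPM, and 349 of the 1348 high-dose UMIs came from 1 cell. Cells that also met the NK gate were left out of this class, a choice made after the data had been seen. The 10 genes together had a ratio of high dose to vehicle of 3.85 (3.19 to 4.61) in this class of the library labelled spleen, and of 1.86 (1.56 to 2.18) with those cells kept in. The class still carried NK marker UMIs. Ncr1 stood at 249 CPM in it in the library labelled spleen and at 53.0 CPM in the other, against 22.7 and 0.964 CPM in CD8+ T cells.

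**Figure D5:**
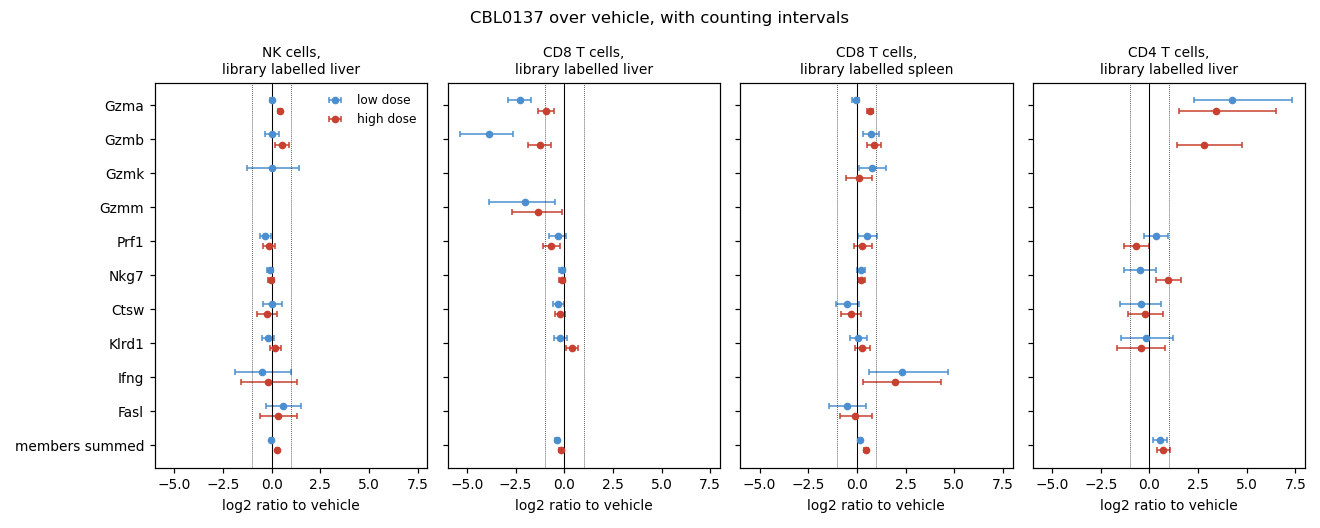
Log2 ratios of low dose and high dose to vehicle for each member with at least 20 UMIs over both pools and for the 10 summed, in NK, CD8+ and CD4+ cells of the library labelled liver and CD8+ T cells of the library labelled spleen, with exact 95% counting intervals and dotted lines at the 2-fold limits. In NK cells of the library labelled liver the points lie near 0, with the sum at 0.28 for the high dose, and in CD8+ T cells the Gzmb points lie below 0 in the library labelled liver, at -3.86 and -1.27, and above 0 in the library labelled spleen, at 0.71 and 0.86.

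A list of 43 companion genes of cytotoxic lymphocytes, among them killer receptors, chemokines and transcription factors, was read in the same way. Of 36 tested, 25 were higher and 2 lower in NK than in CD8+ T cells of the library labelled liver, where 16.6% of all genes tested were higher. The 43 include Eomes, which is also on the list that set the NK class, so the gate favoured a higher level of it there. Between the CD8+ T cells of the libraries 27 of 35 were higher and 1 lower in the library labelled spleen, beside 15.3% of all genes higher. There the chemokine genes Ccl3 (7.70), Ccl4 (4.82) and Ccl5 (4.25), the granzyme gene Gzmc (6.88) and the NKG2 receptor genes Klrc1 (5.17), Klrc2 (5.10) and Klrk1 (3.92) were higher and Tcf7 (-3.83), a factor of naive and memory T cells, was lower. Among CD8+ T cells without a naive list UMI 7 of 31 were higher and 1 lower, beside 163 of 4615 genes called higher. Among those with such a UMI 20 of 31 were higher and 1 lower, beside 1244 of 8828. Between doses fewer were called. In NK cells of the library labelled liver Prdm1 was lower at the high dose (-1.61) and the chemokine gene Xcl1 higher at the low dose (3.98), of 27 tested at each, beside 4.9% and 6.87% of all genes called in either direction. In CD8+ T cells of that library Xcl1 (3.71) and Ccl4 (2.12) were higher and the adaptor genes Tyrobp (-1.45) and Fcer1g (-1.13) lower at the high dose, of 25 tested and beside 2.66% of all genes. At the low dose Xcl1 (1.97) was higher, and Ccl5 (-2.12), Ccl4 (-1.45), Klrk1 (-1.27) and Tox (-1.14) were lower, of 25 and beside 3.01%. These calls changed without cells carrying at least 2 NK list UMIs. Then 0 of 22 were higher and 2 lower at the high dose, beside 224 of 7600 genes called. At the low dose 0 of 24 were higher and 2 lower, beside 226 of 7431. In CD8+ T cells of the library labelled spleen 4 of 30 were higher at the high dose, beside 153 of 4376 genes called higher. They were the granzyme genes Gzmf, with 211 UMIs against 0 with vehicle, and Gzmc, with 49 against 0, then Xcl1, with 23 against 0, and Ccl4 (1.24). At the low dose 3 of 23 were higher, beside 104 of 2810 genes called higher. They were Ccl4 (2.99), Ccl3 (2.503) and Xcl1, with 161 UMIs against 0 with vehicle. The adaptor gene Tyrobp was lower (-4.32). The low-dose Ccl4 ratio thus lay above 0 here and below 0 in the other library. In CD4+ T cells of the library labelled liver 4 of 27 were higher at the high dose, beside 277 of 8502 genes called higher. Among the 4 were Tbx21 (3.16), the T helper 1 factor, Serpinb6b (1.70) and Cd226 (1.02).

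The genes most like each member were sought over 18 pools of the library labelled liver, made of cell class and treatment group, which share a library. Gzma went most closely with the receptor gene Klrk1 and the protease inhibitor gene Serpinb6b, with Pearson r across pools of 0.98 for both. Gzmb also went with Serpinb6b (0.98), Prf1 with Il2rb (0.98), the shared chain of the receptors for interleukins 2 and 15, and Fasl with Itga2 (0.99). Nkg7 and Klrd1 went with Eomes at 0.98, which is on the NK list that set the classes. These values are descriptions, since the pools mostly set NK cells against the rest.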

How the data were processed

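The authors deposited 10x Genomics UMI counts per gene and hashtag for each barcode of both libraries, not normalised. The matrix headers name Cell Ranger 5.0.0, and the submitters' processing notes name Cell Ranger 6.0.0, Seurat and mm10. No deposited cell annotation was used. Hashtag groups were called with HTODemux at the 0.99 quantile, and clusters used SCTransform, 30 principal components and a resolution of 0.8, in R. Cells were not filtered further. UMIs were summed per class and group, divided by the class total and given per 1000000 (CPM) with exact Poisson intervals. Ratios carry exact conditional binomial intervals and shares exact Clopper-Pearson intervals (Python 3.11.15, scipy 1.17.1, numpy 2.4.6), all at 95%. The ratio code was tested on simulated data. The depth was 3369 to 4673 UMIs per barcode (medians), so a count of 0 was read against a floor of 3 counts. A UMI stands for 1 captured transcript, and levels were not divided by gene length. All 10 members were named in every class, and companion genes by the same 2-fold call. The members and lists were chosen with earlier results of these data known. Alternatives covered hashtag calling, gates, clusters, doublets, cell and gene filters, scaling and thinning. Those without the richest cell, and with NK-gated cells kept among T cells without Cd4 or Cd8 UMIs, were chosen after seeing the data.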

Additional observations from a re-analysis of the deposited data

Results flagged for a closer look

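Several dose ratios had opposite signs in the 2 libraries, with both counting intervals leaving out 0. These differences were not tested, since each group is 1 pooled sample per library. In each case the value is the ratio to vehicle in the library labelled spleen minus that in the library labelled liver, on the log2 scale. In NK cells Gzma at the high dose differed by -1.22, where the library labelled spleen had 3 vehicle cells and 8 at the high dose. In CD8+ T cells the 10 genes together differed by 0.53 at the low dose and by 0.65 at the high dose. Gzmb in these cells differed by 4.57 and 2.13 at the low and the high dose, and Gzma by 1.63 at the high dose. The values of Gzma and Gzmb in the library labelled liver rested on the single cells described above. In CD4+ T cells the 10 genes together differed by -2.46 at the low and -2.50 at the high dose, and Nkg7 by -2.69 at the high dose, where the vehicle group of the library labelled spleen held 4 cells.

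Cells without a single hashtag call entered no comparison, and 4 classes of them held more of the 10 genes together than the vehicle group of their class. These were 5 NK cells of the library labelled liver, which held 26393 CPM (vehicle 18409 CPM), and 44 CD4+ T cells, which held 278.8 CPM (vehicle 104 CPM). In the library labelled spleen 20 NK cells without a call held 15783 CPM (vehicle 10968 CPM) and 18 CD8+ T cells held 11400 CPM (vehicle 7308.5 CPM). The 20 NK cells without a call in that library equalled the number with one. Of the 2420 Gzma UMIs of these 20 NK cells 1083 came from 1 cell, as did 376 of their 627 Gzmb UMIs. The remaining classes without a call held less than vehicle. These were 44 CD8+ T cells of the library labelled liver, at 667 CPM (vehicle 1291 CPM), and 17 CD4+ T cells of the library labelled spleen, at 238 CPM (vehicle 2632 CPM). More than 1 tag was carried by 34 of the 44 CD8+ and 36 of the 44 CD4+ T cells of the library labelled liver. Among its NK cells without a call it was 2 of 5. In the library labelled spleen it was 5 of 20 NK, 7 of 18 CD8+ and 2 of 17 CD4+ cells.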

How the results depend on the processing

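No paired analysis was possible because the result comes from no test. Of 101 alternative values of the 8 summed ratios, 70 moved by less than their counting interval and 31 moved further. A change of sign was counted only for ratios that met the 2-fold call, and 0 of these changed sign. Most of the summed ratios fell short of that call. In the library labelled liver CD8+ T cells at the high dose kept their sign in 11 of 13 alternatives, and NK cells at the low dose in 9 of 12. Values are log2 ratios, high dose to vehicle unless said otherwise. In NK cells of the library labelled liver the ratio ranged from 0.04 to 0.33, and moved to 0.19 with cells of T or NK cell-like clusters alone, 0.18 as a mean over cells, 0.036 without the most abundant member and 0.13 with both doses together. The low-dose ratio there moved to -0.10 with a gate of at least 4 UMIs, -0.10 with those clusters, -0.11 without the most abundant member and 0.050 without the richest cells. In CD8+ T cells of that library the ratio moved to 0.0032 without cells with at least 2 NK list UMIs, 0.12 as a mean over cells and -0.048 without the richest cells, so its sign depended on the setting. The low-dose ratio moved to -0.25 with clusters, -0.16 without NK list UMIs, -0.060 as a mean, -0.70 without the most abundant member and -0.25 without the richest cells. In CD4+ T cells it moved to 0.16 with clusters and 0.15 as a mean. In the library labelled spleen CD8+ T cells moved to 0.65 with clusters, 0.85 as a mean, 0.30 without the most abundant member, 0.37 with both doses and 0.64 without the richest cells, and CD4+ T cells moved to -1.05 with the dominant hashtag and -0.85 without the richest cells. The vehicle ratio of NK to CD8+ T cells moved to 4.17 with clusters, 4.05 without NK list UMIs, 4.23 as a mean, 3.73 without the 20 most abundant genes, 4.59 without the most abundant member and 3.97 without the richest cells. Of the single-member values, 622 stayed within their interval, 32 moved and 4 called ones changed sign. In CD8+ T cells of the library labelled liver Gzmb at the high dose turned to 0.69 with clusters and 0.96 as a mean, and Gzma at the low dose to 2.52 without NK list UMIs. In CD4+ T cells there Gzmb at the high dose turned to -1.55 with clusters. The cause of these changes was not tested.

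With 1 pool of 2 mice per group, dose cannot be told apart from the mice, the hashtag or the pool. The tissue of each library is uncertain, so statements hold for the labels. Depth of under 10 UMIs of Gzmm, Ifng or Fasl in many pools limited their intervals. Hashtag calls left 1156 and 1842 barcodes unassigned. Free RNA was not measured apart from levels in B cells and neutrophils, and doublets in the library labelled spleen were not caught.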
